A study of Mus musculus with 18 samples.

Results

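Cholesterol is made from acetyl-CoA through mevalonate and squalene, and it is also taken up, moved between organelles and exported. The genes of synthesis are switched on by the transcription factors SREBP, encoded by Srebf1 and Srebf2, which Scap carries out of the endoplasmic reticulum when sterols are low and which Insig1 and Insig2 hold back when sterols are high. The liver X receptors (LXR), encoded by Nr1h2 and Nr1h3, sense oxidized sterols and switch on genes of export such as Abca1 and Abcg1, and Mylip, whose product marks lipoprotein receptors for breakdown. Red cell precursors need cholesterol for their membrane, and mature red cells, which have lost their nucleus, take it from plasma lipoproteins.

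The genes described were 32 listed genes of this system, taken by their symbols from a list of cholesterol synthesis, uptake and export genes. A row with the symbol was found for 31 of them among 26599 genes of the RNA table. Hmgcs1 was not matched and was not analysed here. Sc4mol is the older symbol of Msmo1. All 31 genes passed the filter for testing, at least 1 FPKM (fragments per kilobase of transcript, scaled to the mapped fragments of the library) in at least 2 libraries, which 10736 genes passed.

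The cells were MEL cells, a line of mouse erythroleukemia cells in which dimethyl sulfoxide (DMSO) brings on hemoglobin. The day 5 group was grown for 5 days in medium with 2% DMSO, and the day 0 group was the same line before treatment. Both grew in medium with fetal bovine serum, which itself carries lipoproteins. Each day had 2 biological replicates, per the labels, of stranded RNA-seq from total RNA. The labels give hemoglobin in at least 80 to 90% of treated cells, by colour and benzidine staining, and at least 90% viable cells at harvest.

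The deposited FPKM summed to between 758150 and 787494 per library, with 10227 to 10601 genes at 1 FPKM or more. Since FPKM hold no counts of reads, sequencing depth is unknown here. Globin genes took 3.98 and 3.74% of summed FPKM on day 5, against 0.217 and 0.134% on day 0, and mitochondrially encoded genes 8.46 and 10.3% on day 5, against 4.88 and 6.45% on day 0. With both groups of genes removed and the rest rescaled, limma called the same 6 cholesterol genes as below. Of 10 erythroid marker genes tested, 8 rose on day 5 and 0 fell (10 higher and 0 lower at an unadjusted limma p under 0.05), with the globin gene Hba-a1 at 17923 and 14670 FPKM on day 5, against 426 and 280 FPKM on day 0, and Hbb-b1 at 10387 and 8734 FPKM on day 5, against 903 and 550 FPKM on day 0. Of 12 macrophage and monocyte markers, cells that use several of the same cholesterol export genes, 10 stayed under 1 FPKM in every library. Csf1r, Cd14, Emr1, Lyz2 and C1qa were listed at 0 in all 4 libraries, and the 12 genes summed to 1.01 and 2.09 FPKM on day 5, against 6.56 and 2.88 FPKM on day 0.

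The comparison of day 5 with day 0 asks which cholesterol genes change while the cells are driven to make hemoglobin. The samples hold no untreated day 5 culture. Effects of DMSO, of the drive to hemoglobin and of time in culture therefore cannot be told apart. Of the 31 genes 6 rose and 0 fell: Mylip, Npc1, Abcg1, Nr1h2, Abca1 and Mvk. By role, 4 of 5 genes of liver X receptor signalling and efflux, 1 of 3 of transport in the cell (Npc1), 1 of 18 of synthesis (Mvk) and 0 of 5 of SREBP control rose, and the difference between these roles was not tested. Changes are log2 fold changes on the log2(FPKM + 1) scale from a limma fit over all 10736 genes, called at a Benjamini-Hochberg adjusted p under 0.05. Of all genes tested, 10.7% rose and 7.81% fell, against 19.4% and 0% of the cholesterol genes. At an unadjusted p under 0.05 limma gave 8 of the 31 cholesterol genes higher and 0 lower, with Sqle and Srebf2 added. Over all 10736 genes tested it gave 2472 higher and 1676 lower at that threshold. The median log2 fold change was 0.37 over the 31 genes and 0.15 over all genes tested. Both day 5 libraries lay above both day 0 libraries for 17 cholesterol genes and below them for 1, Nsdhl, and over all genes tested these shares were 40.2% and 27.0%.

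After quantile normalization, which brought the median of all genes to 0.01, only Mylip and Nr1h2 of the 31 passed (limma adjusted p = 0.0131 and 0.0392). With no filter on low FPKM limma called 0 of the 31. At an unadjusted p under 0.05 that fit gave 8 of them, against 4025 of all 15168 genes in it. Limma also called 0 of the 31 when any of the 4 libraries was left out, and at most 13 of all genes tested. With any library left out, the log2 fold changes of the 6 genes that rose stayed above 0. This had to follow, since both day 5 libraries of each lay above both day 0 libraries. Since the RNA came from whole cultures, a change in RNA per cell and a change in the share of cells that hold it cannot be told apart.

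**Figure D1:**
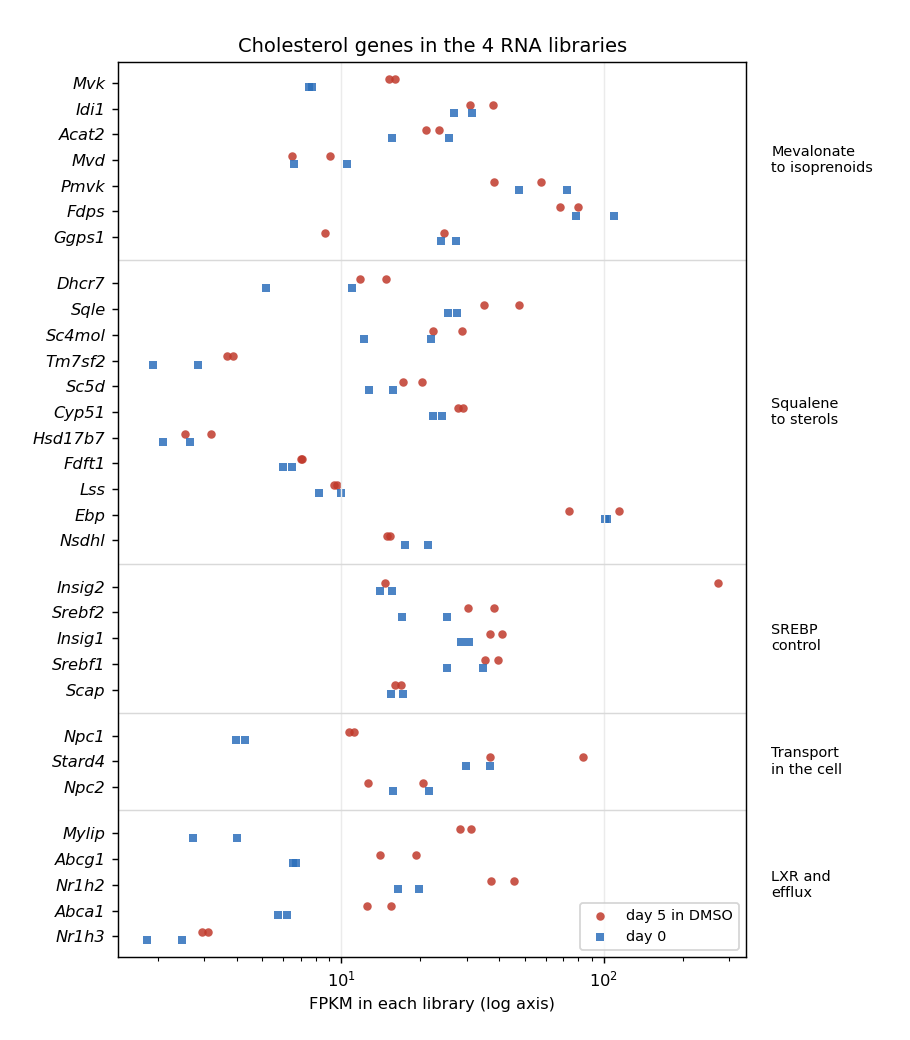
FPKM of each of the 31 cholesterol genes in each of the 4 RNA libraries on a log axis, grouped by role, with circles for day 5 and squares for day 0 (2 libraries each). The day 5 circles of Mylip, Abcg1, Nr1h2, Abca1, Npc1 and Mvk stand clear to the right of the day 0 squares, and 1 day 5 library of Insig2 stands far apart at 272 FPKM.

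The largest change was in Mylip, a ubiquitin ligase gene. It had 31.2 and 28.2 FPKM on day 5, against 2.73 and 4.00 FPKM on day 0. Both day 5 libraries were far above both day 0 libraries, and the means were 29.7 ± 2.13 and 3.37 ± 0.90 FPKM (SD, n = 2 each), 8.82-fold higher on day 5. The log2 fold change was 2.83 ± 0.27 (SE, limma adjusted p = 0.00838), and it ranged from 2.62 to 3.04 when any library was left out. Among all genes tested Mylip stood at percentile 65.1 of mean level on day 5, against percentile 17.6 on day 0.

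The exporter genes Abca1 and Abcg1 both rose. Abca1, which loads cholesterol onto apolipoproteins, had 15.5 and 12.5 FPKM on day 5, against 5.75 and 6.22 FPKM on day 0, a log2 fold change of 1.10 ± 0.25 (SE, limma adjusted p = 0.0418). Abcg1, which loads it onto lipoprotein particles, had 19.2 and 14.1 FPKM on day 5, against 6.51 and 6.75 FPKM on day 0, a log2 fold change of 1.20 ± 0.26 (SE, limma adjusted p = 0.0386). In each gene the lower day 5 library was further from the day 0 libraries than from the other day 5 library. Of the 12 macrophage and monocyte markers, 8 were listed at 0 in every library, and most of the day 0 sum given above was Fcgr1, with 0.386 and 0 FPKM on day 5, against 5.34 and 1.77 FPKM on day 0. The marker Cd68 had 0.628 and 2.09 FPKM on day 5, against 1.22 and 0.766 FPKM on day 0. The part of such cells in these values was not tested. After quantile normalization the log2 fold changes were 0.80 for Abca1 and 0.91 for Abcg1 (limma adjusted p = 0.0857 and 0.0731).

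The liver X receptor genes differed in level. Nr1h2, which encodes the widely expressed form, had 37.2 and 45.5 FPKM on day 5, against 19.7 and 16.4 FPKM on day 0. These groups did not overlap, and its log2 fold change was 1.15 ± 0.22 (SE, limma adjusted p = 0.0294). Nr1h3, whose product is known from macrophages and liver, had only 2.96 and 3.10 FPKM on day 5, against 2.47 and 1.81 FPKM on day 0. Its log2 fold change was 0.37 with a 95% interval of -0.42 to 1.16 (limma adjusted p = 0.428), an interval that overlaps that of Nr1h2 (0.60 to 1.70), and the difference between the receptors was not tested. The Nr1h3 value was 0.22 without day 0 replicate 2 and 0.52 without day 0 replicate 1. It was 0.39 and 0.34 without day 5 replicate 1 or 2. In FPKM, which are per length, Nr1h2 was the more abundant receptor gene in every library. Nr1h3 shares part of its locus with Acp2 in the RefSeq annotation, and the sources used here do not say how reads of the overlap were counted.

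The promoters of Abca1 and Mylip, which both rose, and of Mvk, the only synthesis gene that rose, are shown as the called genes whose windows held a searched motif. The Nr1h2 window held none of those searched, and the called genes Npc1 and Abcg1 had no promoter sequence to search. Sequences are those of RefSeq (GRCm38.p6), from 250 bases before to 50 bases after the start of the gene. Capitals mark matches on either strand to CCAAT (the box bound by NF-Y), to CACGTG (an E-box) and to a direct repeat of the kind liver X receptors bind, searched as GGTNA followed by 5 bases of any kind and GGTNA again.
Abca1 promoter, chr4:53159846-53160145, minus strand: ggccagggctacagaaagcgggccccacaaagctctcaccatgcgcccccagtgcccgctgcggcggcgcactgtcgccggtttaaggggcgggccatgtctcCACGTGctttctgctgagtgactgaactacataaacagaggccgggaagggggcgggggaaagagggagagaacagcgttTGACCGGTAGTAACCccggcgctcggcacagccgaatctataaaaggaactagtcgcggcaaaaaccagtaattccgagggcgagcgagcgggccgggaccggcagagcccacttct
Mylip promoter, chr13:45389492-45389791, plus strand: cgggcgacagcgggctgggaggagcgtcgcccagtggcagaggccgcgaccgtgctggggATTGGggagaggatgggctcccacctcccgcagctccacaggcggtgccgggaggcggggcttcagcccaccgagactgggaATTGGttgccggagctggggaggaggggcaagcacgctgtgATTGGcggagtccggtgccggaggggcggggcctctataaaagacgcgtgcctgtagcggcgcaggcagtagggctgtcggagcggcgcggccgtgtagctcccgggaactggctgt
Mvk promoter, chr5:114444019-114444318, plus strand: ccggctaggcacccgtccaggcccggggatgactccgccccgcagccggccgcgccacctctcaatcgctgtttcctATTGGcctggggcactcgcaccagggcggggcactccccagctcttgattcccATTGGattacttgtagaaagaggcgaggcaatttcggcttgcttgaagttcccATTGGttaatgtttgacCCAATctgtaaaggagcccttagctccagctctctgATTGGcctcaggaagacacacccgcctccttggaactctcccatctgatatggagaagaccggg
The Abca1 window held the direct repeat at positions -67 to -53 from the start of the gene, read on the opposite strand, and an E-box at positions -147 to -142. The Mylip window held 3 CCAAT boxes and the Mvk window 5, with no direct repeat in either.

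A promoter was in the table for 25 of the 31 genes, with 34 start sites, some of which overlap. Fdps, Fdft1, Sqle, Stard4, Npc1 and Abcg1 had none and were not searched. A CCAAT box was found in 20 of these 25 genes (80%), against 44.3% of 7471 tested genes with a promoter in the table. By window, 61.8% of the 34 held it, against 37.4% of all 32817 promoters. The E-box was found in 6 genes (24%), against 12.4% of the tested genes: Abca1, Dhcr7, Hsd17b7, Insig1, Sc5d and Scap. The direct repeat was found in Abca1 and Srebf1 (8%), against 0.535% of the tested genes. It was added to the search last, and the list includes genes such as Abca1 that liver X receptors switch on. These shares therefore do not measure enrichment. The sterol regulatory element in the form TCACNCCAC was found in 0 of the 25 genes, against 1.41% of the tested genes. Other spellings of this element were not searched, so the count does not show that these genes lack it. The GATA motif AGATAA was found in Insig2 and Npc2 (8%), against 7.62%. By window these 4 motifs were in 20.6%, 5.88%, 0% and 5.88% of the 34, against 7.15%, 0.719%, 1.24% and 11.2% of all promoters. Motifs of different names did not share bases in the printed windows. CACGTG reads the same on both strands and was counted once. These are matches of letters and no binding was measured here.

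**Figure D2:**
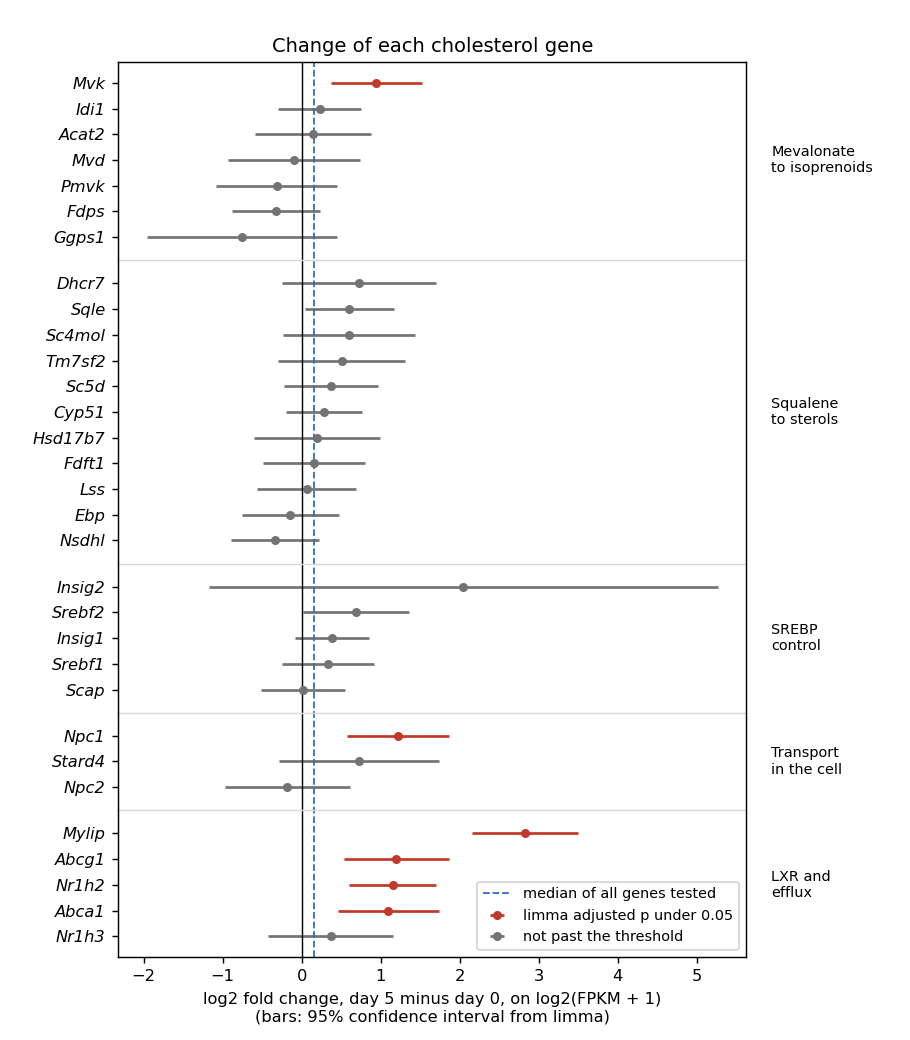
Log2 fold change (day 5 minus day 0, on log2(FPKM + 1)) of each cholesterol gene by role, with the 95% confidence interval from limma over 2 libraries per day, the 6 genes past the threshold in red and the median of all genes tested (0.15) as a dashed line. Of the genes past the threshold, 4 are among the 5 genes of liver X receptor signalling and efflux, and the widest interval is that of Insig2.

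Among genes that move cholesterol inside the cell, Npc1 rose. Its product is the lysosomal membrane protein that releases cholesterol taken up with lipoproteins. Npc1 had 11.2 and 10.7 FPKM on day 5, against 3.97 and 4.30 FPKM on day 0, 2.65-fold higher on day 5. The replicates lay close together on both days, and the log2 fold change was 1.22 ± 0.25 (SE, limma adjusted p = 0.035). It was 0.90 after quantile normalization (limma adjusted p = 0.0689). In the RefSeq annotation the Npc1 locus overlaps that of Rmc1, and reads of the overlap may count toward either gene. Npc2, the soluble partner of Npc1 in the lysosome, had 20.5 and 12.6 FPKM on day 5, against 21.5 and 15.7 FPKM on day 0. Its groups overlapped, with a log2 fold change of -0.18 and a 95% interval of -0.98 to 0.61 (limma adjusted p = 0.702), and leaving out 1 library gave -0.51 to 0.15. Stard4, a carrier of sterols through the cytosol, had 83.6 and 36.9 FPKM on day 5, against 37.0 and 29.9 FPKM on day 0. Only day 5 replicate 1 lay apart. Its log2 fold change came to 0.72 (limma adjusted p = 0.242), and to 0.15 without day 5 replicate 1 and 1.30 without day 5 replicate 2.

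Of the 7 genes of the mevalonate steps found, from acetyl-CoA to isoprenoid diphosphates, 1 rose, 0 fell and 6 did not pass (1 higher and 0 lower at an unadjusted limma p under 0.05). That 1 is 14.3% of the 7, near the 10.7% of all genes tested that rose. The one that rose was Mvk, mevalonate kinase, with 16.1 and 15.2 FPKM on day 5, against 7.56 and 7.74 FPKM on day 0. The replicates of Mvk were close and its groups far from overlapping, and the log2 fold change was 0.94 ± 0.23 (SE, limma adjusted p = 0.0461). This value moved to 0.65 after quantile normalization (limma adjusted p = 0.102). None of the genes of the steps after it passed. Pmvk, which adds the next phosphate, had 57.8 and 38.3 FPKM on day 5, against 72.5 and 47.7 FPKM on day 0 (log2 fold change -0.32, 95% interval -1.08 to 0.45). This value was near 0 without day 5 replicate 2 (-0.0249) or day 0 replicate 1 (-0.0189), and -0.61 with either of the other libraries left out. Fdps, farnesyl diphosphate synthase, had 68.1 and 79.5 FPKM on day 5, against 108.9 and 78.4 FPKM on day 0 (log2 fold change -0.32, 95% interval -0.89 to 0.24), with -0.0901 when day 0 replicate 1 was left out, -0.21 when day 5 replicate 1 was and -0.56 when day 0 replicate 2 was. In both genes the days overlapped. Ggps1, which makes geranylgeranyl diphosphate for protein prenylation, had 8.65 and 24.6 FPKM on day 5, against 23.95 and 27.2 FPKM on day 0. Its log2 fold change of -0.75 (limma adjusted p = 0.295) was -0.05 without day 5 replicate 1 and -1.46 without day 5 replicate 2. Idi1, Acat2 and Mvd had log2 fold changes of 0.22, 0.14 and -0.10. Acat2 was -0.05 after quantile normalization. Summed over these 7 genes, FPKM were 212 and 225 on day 5, against 276 and 215 on day 0.

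None of the 11 genes from squalene to cholesterol was called by limma (0 of 11, with 1 higher and 0 lower by unadjusted p under 0.05), with a median log2 fold change of 0.28. With 10.7% of all genes tested higher and 7.81% lower, 0 of 11 does not set these genes apart. Their intervals together ran from -0.89 to 1.70. Sqle, squalene epoxidase, an enzyme that limits the rate of this branch, had 47.7 and 35.0 FPKM on day 5, against 27.6 and 25.6 FPKM on day 0. Both day 5 libraries were higher, but the log2 fold change of 0.60 (95% interval 0.04 to 1.17) did not pass over all genes (limma adjusted p = 0.111), and it was 0.39 when day 5 replicate 1 was left out. Ebp, a sterol isomerase and the most abundant of these genes on each day by FPKM, had 113.9 and 74.0 FPKM on day 5, against 100.7 and 102.8 FPKM on day 0. Its day 5 libraries lay on either side of day 0, and its log2 fold change was -0.15 (95% interval -0.76 to 0.47), or -0.45 and 0.16 when day 5 replicate 1 or 2 was left out. Dhcr7, the reductase of the last step, had 11.8 and 14.8 FPKM on day 5, against 5.16 and 11.0 FPKM on day 0, or 0.73 on the log2 scale (limma adjusted p = 0.224), a value that was 0.24 without day 0 replicate 1 and 1.21 without day 0 replicate 2. Cyp51, lanosterol demethylase, was tight within each day, at 27.7 and 29.2 FPKM on day 5, against 24.1 and 22.4 FPKM on day 0 (log2 fold change 0.28, limma adjusted p = 0.324). Nsdhl, a sterol dehydrogenase gene, had 14.9 and 15.3 FPKM on day 5, against 21.4 and 17.5 FPKM on day 0 (log2 fold change -0.34, limma adjusted p = 0.308, and -0.20 when day 0 replicate 1 was left out). The other 6, Sc4mol, Tm7sf2, Sc5d, Hsd17b7, Fdft1 and Lss, had log2 fold changes between 0.06 and 0.60, and the last 3 were below 0 after quantile normalization. Summed over the 11 genes, FPKM were 285 and 234 on day 5, against 235 and 226 on day 0. Reads of Fdft1 may be shared with Ctsb and those of Tm7sf2 with Vps51, whose loci overlap theirs in the RefSeq annotation.

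Among the 5 genes that control SREBP limma called 0 (1 higher and 0 lower by unadjusted p under 0.05). Beside the 10.7% higher and 7.81% lower of all genes tested, 0 of 5 does not set them apart. Srebf2, whose product is the main activator of cholesterol synthesis genes, had 38.0 and 30.5 FPKM on day 5, against 25.2 and 17.0 FPKM on day 0. Both day 5 libraries were higher, with a log2 fold change of 0.69 (95% interval 0.02 to 1.36, limma adjusted p = 0.122), which came to 0.96 with day 0 replicate 1 left out and to 0.42 with day 0 replicate 2 left out. Srebf1, whose product acts more on fatty acid genes, had 39.7 and 35.4 FPKM on day 5, against 34.7 and 25.2 FPKM on day 0, a log2 fold change of 0.33 (95% interval -0.24 to 0.91, limma adjusted p = 0.33). It came to 0.56 with day 0 replicate 1 left out and to 0.11 with day 0 replicate 2 left out. The Srebf1 locus overlaps that of Rai1 in the RefSeq annotation. Scap, the escort protein gene, had 16.9 and 15.95 FPKM on day 5, against 17.1 and 15.4 FPKM on day 0, with a log2 fold change of 0.02 (95% interval -0.52 to 0.55).

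The genes of the retention proteins Insig1 and Insig2 differed in how far apart their day 5 libraries lay. Insig1 had 41.0 and 36.9 FPKM on day 5, against 28.6 and 30.7 FPKM on day 0, and its groups did not overlap (log2 fold change 0.38, limma adjusted p = 0.189). Insig2 had 272 and 14.6 FPKM on day 5, against 15.7 and 14.1 FPKM on day 0. The second day 5 library lay within the range of day 0, so the whole of the difference stood in day 5 replicate 1. The log2 fold change was 2.04 with a 95% interval of -1.18 to 5.26 (limma adjusted p = 0.29), and it was -0.02 without day 5 replicate 1 and 4.11 without day 5 replicate 2.

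**Figure D3:**
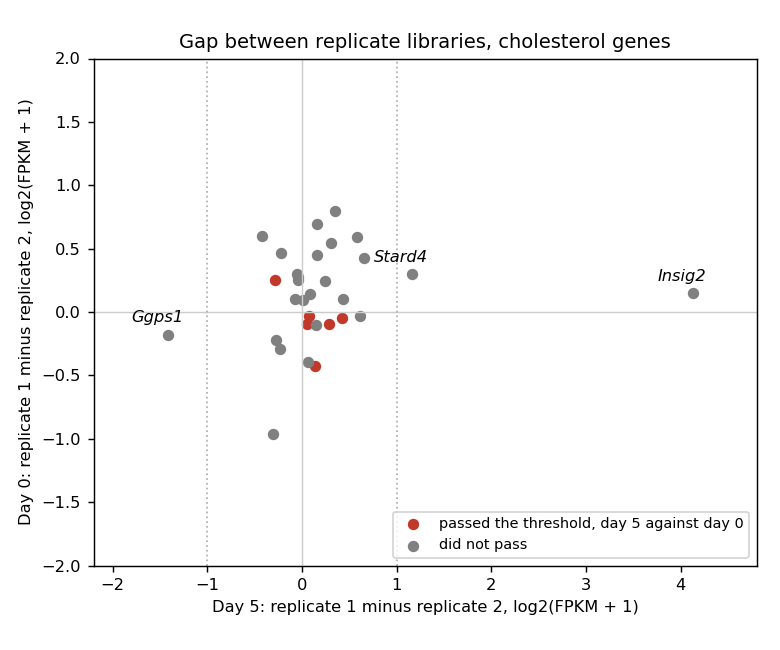
Difference between replicate 1 and replicate 2 on the log2(FPKM + 1) scale for each cholesterol gene, day 5 on the horizontal axis and day 0 on the vertical, with dotted lines at 1 and -1 on day 5. Insig2, Stard4 and Ggps1 lie outside these lines, and the 6 genes past the threshold (red) lie inside.

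Day 5 libraries stood more than 1 apart on the log2(FPKM + 1) scale for 3 of the 31 genes, Insig2 (4.13), Stard4 (1.16) and Ggps1 (-1.41, replicate 1 minus replicate 2), against 9.54% of all genes tested. For day 0 libraries the numbers were 0 of 31, against 6.85% of all genes. A gap above 4 on day 5, like that of Insig2, was found in 0.251% of all genes tested, 27 genes. The summed FPKM of the 31 genes were 1126 and 756 on day 5, against 732 and 629 on day 0, and Insig2 alone gave 272 of the first of these values.

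Related genes that are no members of this set were read in the same fit, from 5 lists drawn up by function. Beside these lists, 10.7% of all genes tested rose and 7.81% fell. Of 10 genes of sterol sensing and regulated breakdown in the endoplasmic reticulum (ER), 4 rose and 0 fell (6 higher and 0 lower at an unadjusted limma p under 0.05), with a median log2 fold change of 0.67. March6, a ubiquitin ligase gene whose product is known in human cells to mark squalene epoxidase, had 56.8 and 63.6 FPKM on day 5, against 25.1 and 27.0 FPKM on day 0 (log2 fold change 1.18 ± 0.18 SE, limma adjusted p = 0.0196). Rnf139, another ubiquitin ligase of this membrane, had 38.1 and 28.4 FPKM on day 5, against 13.7 and 12.3 FPKM on day 0 (log2 fold change 1.28 ± 0.24 SE, limma adjusted p = 0.0279). The ubiquitin ligase gene Rnf145, named after its value was seen, also rose (log2 fold change 1.01). Of 8 genes tested of liver X receptor partners, targets and related transporters, 2 rose and 0 fell, with a median of 0.58. At an unadjusted limma p under 0.05 there were 4 higher and 0 lower. The genes that rose were transporter genes of the families of Abca1 and Abcg1. Whether liver X receptors act on them was not tested. Abcg4 had 18.4 and 17.2 FPKM on day 5, against 4.86 and 4.50 FPKM on day 0 (log2 fold change 1.73 ± 0.24 SE, limma adjusted p = 0.016), and Abca7 had 11.3 and 11.6 FPKM on day 5, against 3.42 and 2.73 FPKM on day 0 (log2 fold change 1.61 ± 0.27 SE, limma adjusted p = 0.0228).

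Of 15 genes tested of sterol esters and transport, 3 rose and 1 fell (20% and 6.67%), with a median log2 fold change of 0.41. Among all genes tested, 10.7% rose and 7.81% fell. Vldlr and Gramd1b, the remaining 2 of the 17 listed, were listed at 0 in every library, as were Arl4c and Smpdl3a of the liver X receptor targets. Osbpl9, of the oxysterol-binding protein family, and Scarb2, a lysosomal membrane protein gene, had 1.05 and 1.03, and Lamp2, named after its value was seen, had 0.90. Lrp8, a lipoprotein receptor gene, fell, with 7.89 and 6.55 FPKM on day 5, against 15.1 and 17.9 FPKM on day 0 (log2 fold change -1.09 ± 0.25 SE, limma adjusted p = 0.0407). Of 15 genes that use isoprenoids, 1 rose, the prenyltransferase subunit gene Pggt1b (1.11), and 1 fell, Pdss1 of ubiquinone synthesis (-1.71), with a median of -0.03. These calls were 6.67% each way, below the shares of all genes. Of 14 genes tested of fatty acid synthesis, many of them targets of Srebf1, 0 rose and 1 fell in limma (1 higher and 4 lower by unadjusted p under 0.05), with a median of -0.07. These 14 gave 0% higher and 7.14% lower calls, both below the shares of all genes. The gene that fell was Me1, malic enzyme, with 17.1 and 14.8 FPKM on day 5, against 32.6 and 34.0 FPKM on day 0 (log2 fold change -1.02 ± 0.20 SE, limma adjusted p = 0.0315). With no filter on low FPKM, and with any library left out, 0 genes of these 5 lists passed.

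**Figure D4:**
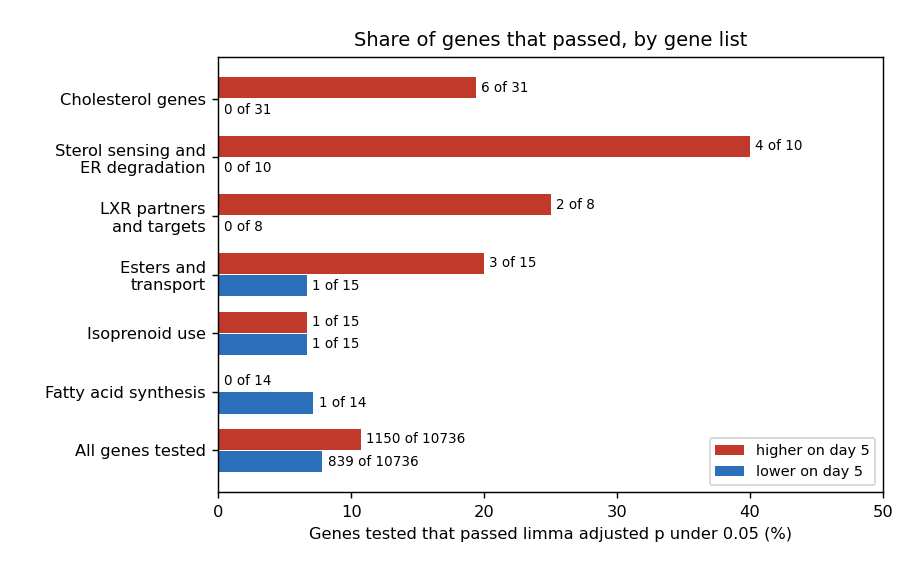
Share of genes tested that passed limma adjusted p under 0.05 on day 5 against day 0, higher (red) and lower (blue), for the cholesterol genes, the 5 related lists and all genes tested, with counts beside the bars. The sterol sensing list stands at 4 of 10 higher, against 10.7% of all genes tested.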

How the data were processed

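MEL cells were profiled by stranded RNA-seq of total RNA on day 0 and after 5 days in 2% DMSO, with 2 replicates per day grouped by sample title. The authors deposited 1 table of FPKM per gene and library. The submitters' processing notes name Bowtie and mm9. The quantifier, its annotation and its use of strand are not stated. DNase, PU.1 and ChIA-PET regions have mm9 coordinates and no gene names, so without a gene annotation of mm9 they were not used here.

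FPKM were transformed as log2(FPKM + 1), so changes of low genes are understated, and a gene was tested where 2 or more libraries reached 1 FPKM. Tests were two-sided limma fits (version 3.58.1, R 4.3.3) on day alone, with eBayes and a trend in the variance and Benjamini-Hochberg adjustment over all genes. With 2 libraries per day, p-values rest on a spread shared across genes. The genes, lists, motifs and tests were chosen with earlier results of these data known, and the direct repeat motif was added last. Values per library are given for genes past the threshold, those of at least 50 FPKM on average on either day and 4 gene pairs (Srebf1 and Srebf2, Insig1 and Insig2, Nr1h2 and Nr1h3, Abca1 and Abcg1), besides a few others named after their values were seen. From each related list up to 2 called genes per direction with the largest change and at least 5 FPKM on average on either day were taken. The name and value of 1 gene counted among the sterol sensing genes are not reported here. The fit was also run on simulated data with independent normal noise of the fitted spread. Such data hold no library that stands apart, so that run does not cover genes like Insig2. Alternatives were another pseudocount (0.1), other filters (none, 5 FPKM), quantile normalization, removal of globin and mitochondrially encoded genes, a fit without trend, a replicate block and leaving out each library. Promoters came from RefSeq (GRCm38.p6) and were matched by symbol.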

Additional observations from a re-analysis of the deposited data

How the results depend on the processing

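Of all genes tested, 1989 passed in limma, and of the cholesterol genes 6 rose and 0 fell. These 6 also passed with a pseudocount of 0.1, a filter of 5 FPKM, no trend, or globin and mitochondrially encoded genes removed, and the count of lower genes was 0 under every alternative. That 0 says little with no filter or 1 library left out, where few genes of any kind passed. With no filter on low FPKM 237 genes passed, of which 0 were cholesterol genes and 0 were of the related lists (13 as reported). Quantile normalization left 2 of the 6, Mylip and Nr1h2, and turned the split of all calls to 814 higher and 895 lower (1150 and 839 as reported), while removing globin and mitochondrially encoded genes gave 1489 and 695 and moved the median of all genes to 0.26. Without trend 8 related genes passed. A replicate block left 2 cholesterol genes, Mylip and Nr1h2, but the labels tie no numbers together and same-numbered libraries deviated together only weakly (correlation 0.05 across genes, which are not independent), so no pairing was used. Leaving out 1 library gave 0 to 13 calls among all genes, and 0 to 0 among the cholesterol genes and the related lists, with a lone library assumed to vary like the other day. The 6 genes that rose kept their direction under all 11 alternatives. In most of these it could not turn, so this is no check of them. Their days did not overlap, so leaving out 1 library or another pseudocount could not turn it. Other filters, no trend and the replicate block left their log2 fold changes the same. Among genes that did not pass, signs turned after quantile normalization for Acat2 (-0.048), Fdft1 (-0.17), Lss (-0.25), Hsd17b7 (-0.10) and Scap (-0.23), and for Mvd (0.0034) with globin and mitochondrially encoded genes removed. With 1 library left out the log2 fold changes ran from -0.40 to 0.20 for Mvd, -0.0571 to 0.0876 for Scap, -0.0198 to 4.11 for Insig2, -0.45 to 0.16 for Ebp, -0.51 to 0.15 for Npc2, -0.21 to 0.49 for Acat2 and -0.0632 to 0.19 for Lss. The cause of these changes was not tested. The depth of the libraries is unknown, and 2 libraries per day limit every interval.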

Other observations

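Some fatty acid genes came near the threshold without passing, and were picked here after their values were seen. The desaturase genes Scd1 and Scd2 and the elongase gene Elovl5 had both day 5 libraries below both day 0 libraries. Of the 14 fatty acid genes tested, 5 lay below in this way and 5 above. Among all genes tested, 27.0% lay below and 40.2% above. Scd2 had 212 and 208 FPKM on day 5, against 538 and 329 FPKM on day 0 (log2 fold change -0.999, limma adjusted p = 0.0554). Scd1 had 16.8 and 18.2 FPKM on day 5, against 43.6 and 27.0 FPKM on day 0 (log2 fold change -0.94, limma adjusted p = 0.0711). Elovl5 had 26.3 and 26.2 FPKM on day 5, against 41.2 and 65.1 FPKM on day 0 (log2 fold change -0.95, limma adjusted p = 0.0599). Acss2, which makes acetyl-CoA from acetate, had 15.2 and 8.10 FPKM on day 5, against 3.80 and 3.92 FPKM on day 0 (log2 fold change 1.32, limma adjusted p = 0.0584). Fasn and Acly, the core enzymes of the pathway, had log2 fold changes of -0.20 and 0.03.

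Insig2 was among 3 genes of all 10736 tested that stood more than 4 above all other libraries in day 5 replicate 1 on the log2(FPKM + 1) scale. The others were Cbx8, a Polycomb group gene, with 292 FPKM there and 2.70 FPKM in day 5 replicate 2, against 3.39 and 2.82 FPKM on day 0, and Hyal1, a hyaluronidase gene, with 197 FPKM there and 2.25 FPKM in day 5 replicate 2, against 2.20 and 1.02 FPKM on day 0. Day 5 replicate 2 had 1 such gene, day 0 replicate 1 had 1 and day 0 replicate 2 had 0. Erlin1, whose product binds sterols in the endoplasmic reticulum, was apart between replicates on both days, with 633 and 211 FPKM on day 5, against 573 and 226 FPKM on day 0.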
